A study of Homo sapiens with 4 samples.

Results

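The thioredoxin system was described here by 10 genes, chosen by symbol among the 57979 genes of the deposited table. They were the thioredoxins TXN and TXN2, their reductases TXNRD1 and TXNRD2, the thioredoxin-binding protein TXNIP, the thioredoxin-fold proteins TXNL1, TXNL4A, TXNL4B and TXNDC17, and the glutaredoxin GLRX. Each symbol stood on 1 line of the table, and all 10 genes were among the 13246 genes tested, whose mean level over the 4 libraries was above 1 FPKM (fragments counted per unit of transcript length and of library size). Poly(A) RNA was sequenced from 2 wild-type libraries and 2 TXNDC9-KO libraries of cells labelled HepG2, a human liver tumour line, grown in DMEM with fetal bovine serum. The knockout cells had received Cas9 and a guide RNA against TXNDC9 from a lentiviral vector, and the control libraries are labelled only as wild type. For its protein blots the study sorted cells infected with Cas9 and a guide, and its control there was the vector alone. Whether the sequenced RNA came from those sorted cells, and which guide they carried, is not stated for the RNA. The study's legends speak of more independent experiments for its RNA-seq values than the 2 libraries per group used here. The labels do not tie the 2 libraries of a group to separate cultures. The p-values therefore measure the spread between these libraries, which may be technical.

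Thioredoxins are small proteins that reduce disulfides in other proteins through a pair of cysteines, and thioredoxin reductases recharge them with electrons from NADPH. TXN and TXNRD1 work in the cytosol and nucleus, TXN2 and TXNRD2 work in mitochondria, and both reductases carry a selenocysteine that is read from a UGA codon. TXNIP, an arrestin-fold protein induced by glucose, binds reduced thioredoxin and blocks it, while glutaredoxins draw their electrons from glutathione. TXNDC9 has a thioredoxin fold itself and is a phosducin-like cofactor of the TRiC chaperonin. The study targeted it to learn its role in hepatocellular carcinoma, and the comparison below shows where the mRNAs of its redox relatives stood upon TXNDC9 knockout.

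The coding sequences were searched for some of the reactive residues of this chemistry. The canonical GENCODE transcripts (release 44, hg38) of all 10 members were scanned for cysteine codons with 2 other codons between them. Such a pair was present in 6 members and absent from TXNRD2, TXNIP, TXNL4A and TXNL4B. Pairs with another spacing were not searched for, so a member without this pair may still carry reactive cysteines. The pair is printed here for 5 of the 6 members that have it, TXNRD1 being left out. The bases run 5′ to 3′ on the coding strand, with the cysteine codons in capitals:
TXN, codons 32 and 35, exon 2, chr9:110251379-110251396, minus strand: tggTGTgggcctTGCaaa
TXN2, codons 90 and 93, exon 3, chr22:36476838-36476855, minus strand: tggTGTggacccTGCaag
TXNL1, codons 34 and 37, across the junction of exons 1 and 2, chr18:56626442-56638344 with the intron, minus strand: gggTGTgggccaTGTttg
TXNDC17, codons 43 and 46, exon 1, chr17:6641206-6641223, plus strand: tggTGCcccgacTGCgtg
GLRX, codons 23 and 26, exon 1, chr5:95822582-95822599, minus strand: accTGCccgtacTGCagg
An in-frame TGA codon, read as selenocysteine, was present in 2 of the 10 coding sequences, those of the reductases. It is printed in capitals, from 3 codons before it to the stop codon:
TXNRD1, codon 648, exon 17, chr12:104348404-104348421, plus strand: gctggctgcTGAggttaa
TXNRD2, codon 523, exon 17, chr22:19877105-19877122, minus strand: acaggctgcTGAgggtaa

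The libraries were checked before the members were compared. TXNDC9 mRNA was 35.1 and 37.3 FPKM in wild-type cells and 21.9 and 27.6 FPKM in knockout cells, a log2 fold change of −0.55 (SE 0.14, adjusted p = 0.0145 from limma) that became 0.12 after each library was rescaled to the same sum (TPM). The study showed the knockout by a protein blot, on which it reported TXNDC9 as reduced. The mRNA values do not measure protein. The labelled cell type was not borne out by its markers: of 8 genes that define hepatocytes and hepatoma cells (ALB, AFP, APOA1, APOB, TTR, SERPINA1, HNF4A and FGB), 0 had a mean above 1 FPKM. The highest value was 0.449 FPKM, for AFP in wild-type replicate 2, and APOA1 was listed at 0 in all 4 libraries. Their summed level was 0.351 to 0.716 FPKM in wild-type and 0.0479 to 0.121 FPKM in knockout libraries, so the cells are called here by their label only. Of 11 markers of leukocytes, endothelium and fibroblasts, 4 were tested. Their summed level was 26.5 to 35.0 FPKM in wild-type and 24.8 to 29.3 FPKM in knockout libraries, most of it COL1A1 (22.8 to 31.5 and 17.5 to 20.7 FPKM), whereas PTPRC and PECAM1 stayed at or below 0.261 FPKM. Of the 4, CDH5 and PDGFRB were called higher, CDH5 at 0.751 and 1.07 FPKM in wild-type against 4.26 and 3.14 FPKM in knockout libraries and PDGFRB at 1.08 and 0.735 against 3.004 and 2.62 FPKM. The part of other cells in the results was not tested, and in bulk RNA fewer cells of a type and less RNA per cell cannot be told apart. The FPKM values summed to between 805816 and 971102 in wild-type and between 535973 and 568279 in knockout libraries. The files hold no counts and no step worth 1 read was found, so the depth is unknown and no counting intervals are given.

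Of the 10 members, 3 were lower (TXNL4A, TXNRD2 and TXN2) and 1 was higher (TXNRD1) in the knockout libraries, where a call needed both an adjusted p under 0.01 and a 2-fold difference. Over all tested genes the same rule called 15.3% lower and 14.2% higher, 2021 and 1885 genes. The median log2 fold change of the members was −0.74, against −0.09 over all tested genes. The knockout values lay below both wild-type values for 6 members and above them for 3, and overlapped for TXNIP alone, where over all tested genes 45.9% lay below and 40.1% above. Each member was thus read against a background in which most genes differed between the groups. Leaving out either knockout library removed every call: limma on the 3 remaining libraries, in which the lone library is assumed to vary like the others, called 0 members and 0 of all tested genes, with a smallest adjusted p among members of 0.0237 without TXNDC9-KO replicate 1 and 0.0236 without TXNDC9-KO replicate 2. The log2 fold changes without TXNDC9-KO replicate 1 and without TXNDC9-KO replicate 2 were 1.41 and 1.21 for TXNRD1 and −1.31 and −1.31 for TXNL4A. For TXNRD2 they were −1.14 and −1.17, and for TXN2 −0.96 and −1.15. Without wild-type replicate 1, TXN joined the lower members, which made 4 (19.9% of all genes were then lower and 16.1% higher), and without wild-type replicate 2 TXN2 left them, which made 2 (11.8% and 14.0%). Without the fold threshold 5 members were lower and 1 higher, against 27.1% and 23.7% of all genes, TXN and TXNL1 being the ones added. A fit with the replicate number as a block called the same 3 and 1 members, against 16.2% and 14.8%.

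**Figure D1:**
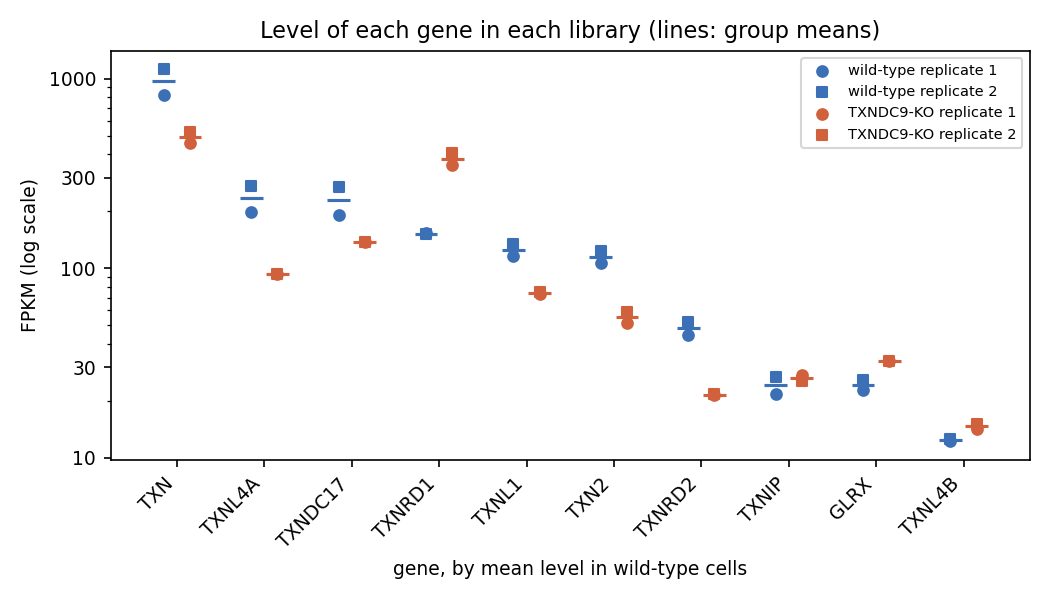
Level in FPKM (log scale) of each of the 10 genes in each of the 4 libraries, ordered by the wild-type mean. Circles and squares are replicates 1 and 2, horizontal lines are group means (n = 2). TXN is the highest gene in every library, TXNRD1 is higher in both TXNDC9-KO libraries, and the groups overlap for TXNIP alone.

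TXN was the most abundant member in every library, and its share of the summed FPKM of the 10 members was 48.7% and 51.3% in wild-type against 36.5% and 37.7% in knockout libraries. That sum itself was 1691 and 2187 FPKM in wild-type cells against 1263 and 1389 FPKM upon knockout. In wild-type cells the order of mean levels per length was TXN, TXNL4A, TXNDC17, TXNRD1, TXNL1, TXN2, TXNRD2, TXNIP, GLRX and TXNL4B, and the libraries of 3 neighbouring pairs overlapped (TXNL4A with TXNDC17, TXNL1 with TXN2, TXNIP with GLRX). In knockout cells the order was TXN, TXNRD1, TXNDC17, TXNL4A, TXNL1, TXN2, GLRX, TXNIP, TXNRD2 and TXNL4B, with 0 overlaps between neighbours. TXNRD1 had moved from the fourth place to the second and TXNRD2 from the seventh to the ninth, below GLRX and TXNIP. The plot of levels by library shows these places.

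The cytosolic thioredoxin and its reductase differed in direction. TXN (ENSG00000136810, chr9:110243810-110256507, minus strand, 5 exons) measured 824 and 1122 FPKM in wild-type cells, against 461 and 523 FPKM upon knockout. The groups did not overlap, and the wild-type libraries lay further apart than the knockout libraries. The mean was 973 ± 211 FPKM against 492 ± 44.2 FPKM (SD, n = 2), a 1.98-fold difference. The log2 fold change of −0.97 (SE 0.20, 95% interval −1.47 to −0.47, adjusted p = 0.00714 from limma) passed the p threshold and fell just short of the 2-fold threshold. Rescaled to TPM the value was −0.29 (adjusted p = 0.0203). Of the 10 lines for processed copies of TXN, GLRX and TXNL1, picked out after the values had been seen, 9 were listed at 0 in all libraries, and the highest value was 0.365 FPKM for TXNP6 in TXNDC9-KO replicate 2.

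TXNRD1, which keeps TXN reduced, was the member that rose. TXNRD1 (ENSG00000198431, chr12:104215779-104350307, plus strand, 17 exons) was 153 and 152 FPKM in wild-type cells against 352 and 406 FPKM in knockout libraries. The lowest knockout value was above both wild-type values, and the wild-type values were nearly the same. The mean rose from 152 ± 0.544 to 379 ± 38.2 FPKM (SD, n = 2), 2.49-fold, with a log2 fold change of 1.31 (SE 0.13, 95% interval 0.99 to 1.63, adjusted p = 0.000722 from limma). The value was 1.99 after rescaling to TPM. When every library was corrected for the length and GC content of the transcripts, it came to 0.90 (adjusted p = 0.00326), which passed the p threshold and was under 2-fold, so the call ended there. EID3 and RPL18AP3, which lie on the same strand within the locus, were at 1.92 to 3.13 FPKM in all libraries.

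Both mitochondrial genes fell together. TXN2 (ENSG00000100348, chr22:36467046-36481640, minus strand, 4 exons) was 107 and 123 FPKM in wild-type cells against 51.6 and 58.8 FPKM in knockout libraries. The group means were 115 ± 11.3 and 55.2 ± 5.09 FPKM (SD, n = 2), and limma gave a log2 fold change of −1.06 (SE 0.13, 95% interval −1.37 to −0.74, adjusted p = 0.00117). TXN2 provides the reduced thioredoxin of the mitochondrial matrix.

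TXNRD2 (ENSG00000184470, chr22:19875517-19941820, minus strand, 18 exons), the mitochondrial reductase, was 44.5 and 51.9 FPKM in wild-type cells against 21.3 and 21.8 FPKM in knockout libraries. The means of 48.2 ± 5.22 and 21.5 ± 0.333 FPKM (SD, n = 2) gave a log2 fold change of −1.16 (SE 0.11, 95% interval −1.44 to −0.87, adjusted p = 0.000726 from limma). In both mitochondrial genes the knockout libraries stood clear of the wild-type libraries. Both calls ended after rescaling to TPM, with −0.38 for TXN2 and −0.48 for TXNRD2, and after the correction for length and GC content, with −0.32 and −0.35.

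TXNIP, the inhibitor, showed no difference larger than the spread. TXNIP (ENSG00000265972, chr1:145992435-145996579, minus strand, 8 exons) was 21.8 and 26.5 FPKM in wild-type cells against 27.3 and 25.5 FPKM in knockout libraries. Knockout replicate 2 lay between the wild-type libraries, so the groups overlapped. The log2 fold change was 0.13 (SE 0.13, 95% interval −0.19 to 0.46, adjusted p = 0.387 from limma), and its sign changed under 4 of the 16 alternatives, to −0.01 when libraries were centred on their medians, to −0.01 without wild-type replicate 1, and to −0.05 after the correction for length and GC content, alone or with the replicate block. In TPM it was 0.81 (adjusted p = 0.00114), under 2-fold.

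The thioredoxin-like proteins are named for their fold, and their roles differ. TXNL4A, the human form of yeast Dim1 and a protein of the U5 small nuclear ribonucleoprotein, had the largest fall among the members in the values as deposited. TXNL4A (ENSG00000141759, chr18:79970813-80033949, minus strand, 3 exons) was 199 and 271 FPKM in wild-type cells against 93.6 and 93.3 FPKM in knockout libraries. The knockout values were nearly identical and less than the lower wild-type value. The means were 235 ± 51.2 and 93.5 ± 0.261 FPKM (SD, n = 2), a 2.51-fold fall and a log2 fold change of −1.31 (SE 0.17, 95% interval −1.73 to −0.89, adjusted p = 0.00142 from limma). It was −1.45 (adjusted p = 0.00310) after the correction for length and GC content, where the call was kept, and −0.63 (adjusted p = 0.00137) after rescaling to TPM, where it ended.

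TXNL4B, a close relative of TXNL4A that also takes part in splicing, was the least abundant member. TXNL4B (ENSG00000140830, chr16:72044289-72094431, minus strand, 4 exons) was 12.2 and 12.5 FPKM in wild-type cells against 14.2 and 15.02 FPKM in knockout libraries. Both knockout values were above both wild-type values, and the difference did not pass the test, with a log2 fold change of 0.24 (SE 0.10, 95% interval −0.01 to 0.49, adjusted p = 0.0798 from limma). A noncoding gene without a symbol, ENSG00000260252, lies over much of its transcript on the opposite strand and was 7.57 and 10.1 FPKM in wild-type cells against 2.57 and 0.995 FPKM in knockout libraries, and whether reads were assigned by strand is not given in the sources used here, so the TXNL4B values are uncertain.

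TXNL1, a cytosolic thioredoxin-like protein that binds the proteasome, was 117 and 134 FPKM in wild-type cells against 72.8 and 74.9 FPKM in knockout libraries. TXNL1 (ENSG00000091164, chr18:56597209-56651600, minus strand, 8 exons) had a log2 fold change of −0.76 (SE 0.12, 95% interval −1.05 to −0.47, adjusted p = 0.00256 from limma), past the p threshold and under 2-fold. The groups did not overlap. The correction for length and GC content took the value to −1.74 (adjusted p = 0.00167), past both thresholds, and rescaling to TPM took it to −0.08 (adjusted p = 0.458).

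TXNDC17, also known as TRP14, is a cytosolic oxidoreductase that TXNRD1 reduces. TXNDC17 (ENSG00000129235, chr17:6640985-6644541, plus strand, 4 exons) was 191 and 268 FPKM in wild-type cells against 137 and 138 FPKM in knockout libraries. The knockout values were below both wild-type values, which lay far apart, and the log2 fold change of −0.72 (SE 0.18, 95% interval −1.17 to −0.27, adjusted p = 0.0153 from limma) did not pass the test. Rescaled to TPM the value was −0.04 (adjusted p = 0.754 from limma), and after the correction for length and GC content −0.67 (adjusted p = 0.0197 from limma). MED31 lies over 1231 of the 1917 bases of its canonical transcript, on the opposite strand. MED31 was 31.4 and 42.9 FPKM in wild-type cells against 25.96 and 31.9 FPKM in knockout libraries. As for TXNL4B, the assignment of reads by strand is not given, so the TXNDC17 values are uncertain too.

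GLRX, the cytosolic glutaredoxin, was 22.7 and 25.7 FPKM in wild-type cells against 32.4 and 32.5 FPKM in knockout libraries. GLRX (ENSG00000173221, chr5:95751319-95822726, minus strand, 3 exons) had a log2 fold change of 0.43 (SE 0.11, 95% interval 0.16 to 0.69, adjusted p = 0.0151 from limma), short of both thresholds, although the groups did not overlap. After rescaling to TPM the value was 1.11 (adjusted p = 0.000268), past both thresholds. Its whole canonical transcript lies within RHOBTB3 on the opposite strand, which was 7.99 and 8.53 FPKM in wild-type cells against 12.6 and 12.5 FPKM in knockout libraries. With the assignment of reads by strand not given, the GLRX values are uncertain as well.

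**Figure D2:**
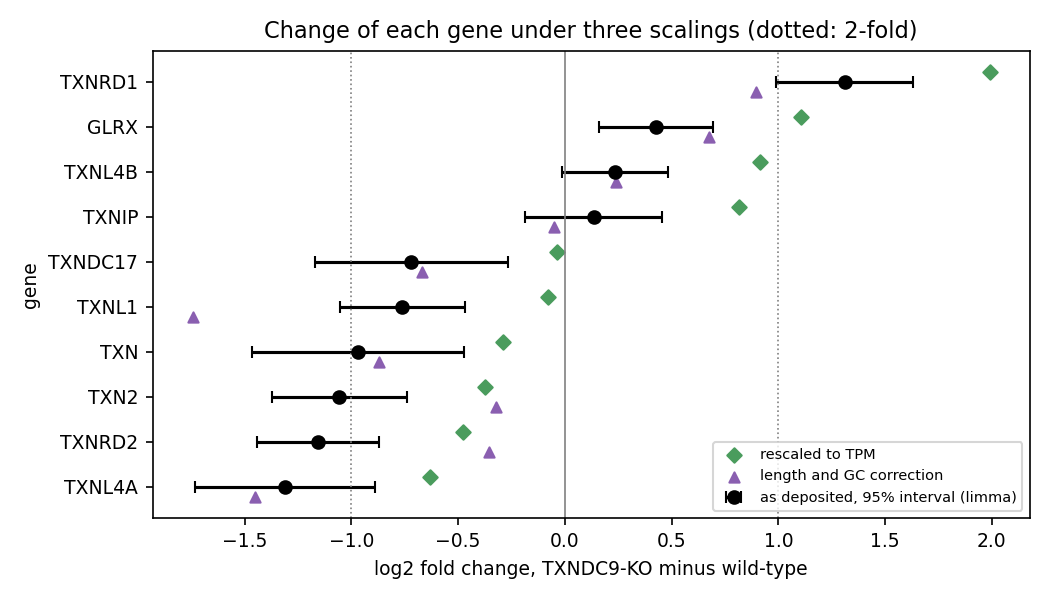
Log2 fold change of each gene, TXNDC9-KO minus wild-type, on the log2(FPKM + 0.1) scale, with the 95% interval from limma (black, 2 libraries per group), after rescaling each library to TPM (green) and after correction for transcript length and GC content (purple). Dotted lines mark 2-fold. TXNRD1 lies to the right of 0 and TXNL4A to the left of 0 under all 3 treatments.

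The scaling between libraries moved all members alike. The median over all tested genes, −0.09 on the log2 scale as deposited, became 0.59 in TPM and the calls became 447 lower and 4380 higher (3.37% and 33.1% of those tested). Centring on library medians gave 2601 lower and 1452 higher (19.6% and 11.0%), with 4 members lower and 1 higher. Under TPM 0 members were lower and 2 were higher, TXNRD1 and GLRX. Read against the median of all tested genes, TXNRD1 stood 1.40 above it as deposited and 1.41 above it in TPM. On the same scale TXNL4A stood −1.22 from that median under both, TXNRD2 −1.07 and −1.06, TXN2 −0.97 and −0.96, and TXN −0.88 and −0.87.

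Transcript length and base composition moved with the change across the whole table, and the members took part. Over 13112 genes with a canonical transcript in GENCODE, all measured in the same 4 libraries, Spearman's rho of the change was 0.495 against transcript length and −0.462 against GC content, a description across genes that are no replicates. The canonical transcript of TXN is 737 nt long, those of TXN2 and TXNRD2 are 1336 and 1941 nt with 56.4% and 62.1% GC, and that of TXNRD1 is 3860 nt with 43.8% GC. Each member was set beside the tested genes whose transcript length was within 0.25 of its own on the log2 scale. TXN lay above 45.7% of such genes and TXN2 above 31.0%, so both stood among the rest, and TXNRD2 lay above 15.8%. TXNRD1 lay above 93.2% and GLRX (932 nt) above 89.6% of genes of their length. TXNL4A (3472 nt) and TXNL1 (6840 nt) lay low, above 3.54% and 7.08%. After the correction 2 members were lower, TXNL4A and TXNL1, and 0 were higher, where the correction left 7.72% of all tested genes lower and 6.38% higher (7.53% and 5.52% with the replicate block, which left the same number of members). The correction uses the canonical transcript of each gene, and which transcripts gave the reads is not in the files.

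**Figure D3:**
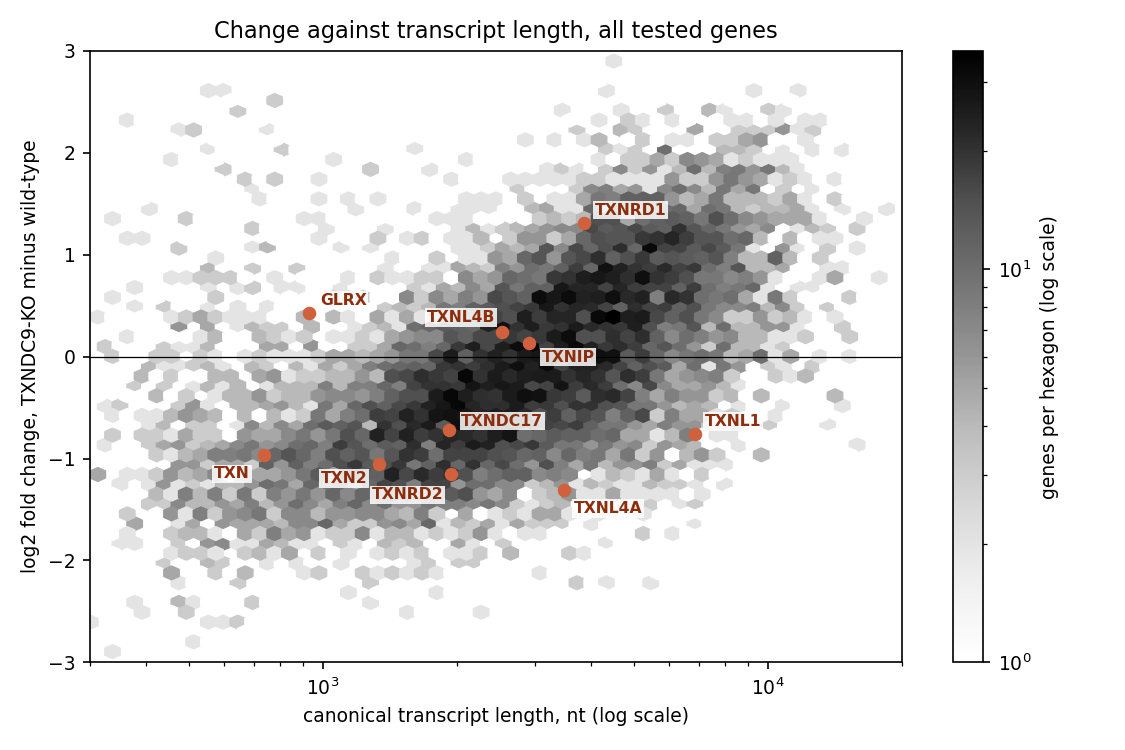
Log2 fold change (TXNDC9-KO minus wild-type) against canonical transcript length in nt (log scale). Grey hexagons count the tested genes, red points are the 10 members, and 272 of 13112 genes lie outside the axes. Longer transcripts tend to lie higher, TXNL4A and TXNL1 lie below most genes of their length, and GLRX and TXNRD1 lie above most.

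Ratios of 2 members within a library do not depend on the scaling between libraries. The ratio of TXNRD1 to TXN was 0.186 and 0.136 in wild-type and 0.764 and 0.777 in knockout libraries, a log2 difference of 2.28, and 1.77 with the values corrected for length and GC content. The ratio of TXNIP to TXN was 0.0265 and 0.0237 in wild-type against 0.0593 and 0.0488 in knockout libraries, a log2 difference of 1.10, and that of GLRX to TXN was 0.0275 and 0.0229 against 0.0702 and 0.0622, a log2 difference of 1.40. Relative to TXN, the reductase, the inhibitor and the glutaredoxin were thus each higher in both knockout libraries. These ratios share TXN, which itself stood −0.88 from the median change of all tested genes as deposited. On that scale TXNRD1 stood at 1.40, TXNIP at 0.22 and GLRX at 0.515. The fall of TXN thus enters each ratio. Only 2267 of the 13246 tested genes had a log2 fold change of −1 or less, where TXN had −0.97. Most tested genes therefore rose relative to TXN, and such a rise is not particular to these members. Tested genes with a transcript length like that of TXN had a median log2 fold change of −0.91.

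The mitochondrial ratio of TXNRD2 to TXN2 was 0.416 and 0.423 in wild-type and 0.413 and 0.370 in knockout libraries, a log2 difference of −0.10. The ratio of TXN2 to TXN was 0.130 and 0.110 in wild-type and 0.112 and 0.112 in knockout libraries, and here the groups overlapped. With the values corrected for length and GC content, the log2 ratio of TXN2 to TXN was −4.54 and −4.83 against −4.13 and −4.14, so that the groups stood apart and the difference turned from −0.09 to 0.55. That of TXNRD2 to TXN2 then overlapped, with a difference of −0.03. The ratio of TXNL4B to TXNL4A was 0.0615 and 0.0463 against 0.152 and 0.161, a log2 difference of 1.55. Of the 6 ratios as deposited, 5 did not overlap between the groups, and the exact two-sided permutation test gave each of these p = 0.33, the smallest value that 2 libraries against 2 allow. The share of all gene pairs that stand apart was not computed. Among single genes, 45.9% of those tested lay below and 40.1% above, so separation of the groups was common and the count is no result about these ratios.

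**Figure D4:**
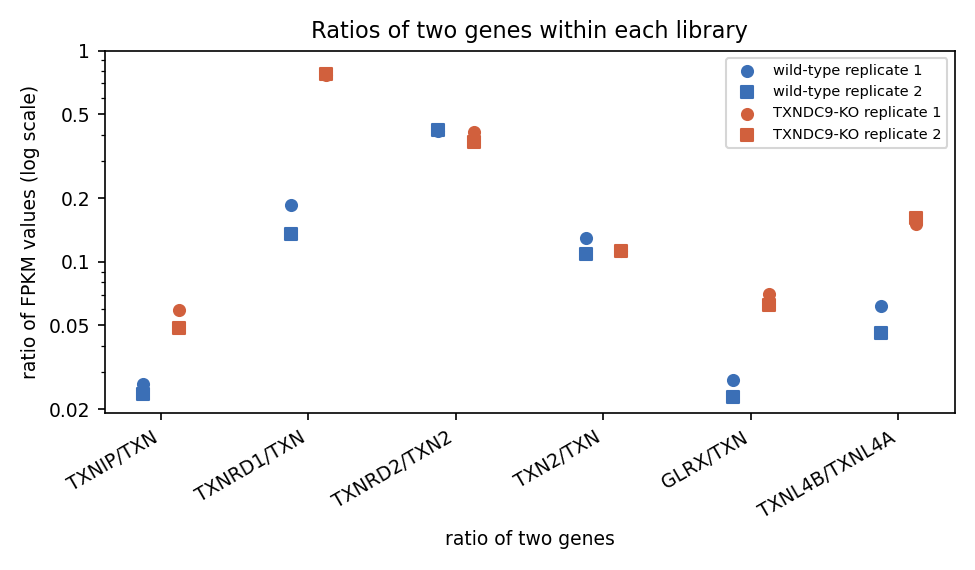
Ratio of the FPKM values of 2 genes within each library (log scale), wild-type in blue and TXNDC9-KO in red, with circles for replicate 1 and squares for replicate 2. TXNRD1/TXN lies between 0.136 and 0.186 in wild-type and at 0.764 and 0.777 in TXNDC9-KO libraries, while TXN2/TXN overlaps in these values as deposited.

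The genes around the members were described by lists of their partners and relatives. Over 7 lists, 77 of 85 genes were tested, of which 11 were lower and 9 higher by the same rule. These are 14.3% and 11.7% of the genes tested, near the 15.3% and 14.2% called over all genes, so the calls below are a description of single genes and not of the lists. After the correction for length and GC content 4 were lower and 1 higher, 5.19% and 1.3% against 7.72% and 6.38% of all genes. In TPM 1 was lower and 21 were higher, 1.3% and 27.3% against 3.37% and 33.1% of all genes. The counts of single lists below are to be read against these shares. The median log2 fold change of these genes was −0.17. Among other thioredoxin-fold genes, 18 of 23 were tested, 2 were lower (SELENOM and TXNDC11) and 3 were higher (TXNDC16, TMX1 and TMX3). After the correction all 3 higher calls ended and 3 genes were lower (SELENOM, TXNDC11 and TXNDC15), and in TPM 1 was lower (SELENOM) and 5 were higher. SELENOM, a selenoprotein of the endoplasmic reticulum, fell from 7.96 and 12.5 to 1.53 and 2.18 FPKM, with a log2 fold change of −2.38. TXNDC11, which helps fold membrane and secreted proteins, fell from 48.2 and 67.5 to 19.2 and 20.8 FPKM, with −1.51. TMX1 and TMX3, membrane-bound disulfide isomerases of the endoplasmic reticulum, had log2 fold changes of 1.21 and 1.22. TXNRD3, the third thioredoxin reductase, was 5.09 and 7.17 FPKM in wild-type cells against 4.95 and 5.76 FPKM in knockout libraries, and did not pass the test.

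The next list held peroxiredoxins, methionine sulfoxide reductases, ribonucleotide reductase subunits and other genes linked to thioredoxin, not all of which it reduces. Of its 15 tested genes, 4 were lower (PRDX2, PRDX4, PRDX5 and MSRB2) and 1 was higher (RRM2B), with a list median of −0.44. PRDX2, a cytosolic peroxiredoxin, fell from 614 and 745 to 218 and 241 FPKM, with a log2 fold change of −1.56. RRM2B, the p53-induced small subunit of ribonucleotide reductase, whose large subunit RRM1 is the one that thioredoxin reduces, rose from 3.61 and 4.14 to 11.3 and 12.3 FPKM, with 1.59. After the correction for length and GC content 0 of the 15 were called in either direction, and under TPM 0 were lower and 4 higher.

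Of 11 genes of glutathione and NADPH supply and of other glutaredoxins, 1 was lower (GLRX5) and 2 were higher (NNT and GCLM). GLRX5, a mitochondrial glutaredoxin of iron-sulfur cluster assembly, fell from 81.9 and 90.5 to 41.7 and 41.0 FPKM, with a log2 fold change of −1.05. NNT, which makes NADPH in mitochondria, rose from 28.1 and 26.7 to 60.7 and 59.1 FPKM, with 1.13. GCLM, the modifier subunit of the enzyme that limits glutathione synthesis, had a log2 fold change of 1.01. After the correction 0 of these 11 were called.

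Of 9 regulators of NRF2, the factor known to drive TXN and TXNRD1 under oxidative stress, 0 were lower and 1 was higher. After the correction 1 was lower (CUL3) and 1 higher (BACH1), and in TPM 0 were lower and 4 higher. BACH1, a repressor that competes with NRF2 for its sites, rose from 4.67 and 4.21 to 15.8 and 17.1 FPKM, with a log2 fold change of 1.87. KEAP1, which holds NRF2 in check, had a log2 fold change of −0.70 (adjusted p = 0.00878 from limma), under 2-fold. NFE2L2, the gene of NRF2, had a log2 fold change of 0.20 (adjusted p = 0.193 from limma).

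Of 10 genes related to TXNIP by fold or glucose sensing, 7 were tested, and 1 was higher. ITCH, a ubiquitin ligase for TXNIP, rose from 4.86 and 5.09 to 16.9 and 14.9 FPKM, with a log2 fold change of 1.65, and ARRDC3, an arrestin-domain relative, had 0.74. MLXIPL, whose product ChREBP induces TXNIP in liver, was at 0.213 to 0.573 FPKM and was not tested. MLXIP, another gene of glucose sensing in this list, was at 7.95 to 8.84 FPKM, with a log2 fold change of 0.01. Of 8 factors of selenoprotein synthesis, on which both reductases depend, 2 were lower (PSTK and RPL30, a ribosomal protein with many processed copies) and 1 was higher (SEPSECS, with a log2 fold change of 1.34). PSTK had a log2 fold change of −1.15. The last list held 9 genes of the U5 particle to which TXNL4A belongs and of its splicing partners. Of these, 2 were lower, PRPF31 with −1.29 and PQBP1 with −1.20, neither of them a core U5 protein. The list median was −0.77. After the correction 0 genes of these 3 lists were called, and under TPM 0 were lower and 4 higher.

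Promoter windows of the members were searched for motifs of factors tied to these genes. RefSeq (GRCh38.p14) gave windows of 250 bases before to 50 after the start for 9 members, all but TXN2. The core of the antioxidant response element bound by NRF2, TGACNNNGC on either strand, was present in 2 members, TXNRD1 and TXNL1, and in 13.6% of all 27305 windows. CACGTG and the AP-1 motif TGANTCA were present in 0 members and in 7.43% and 7.76% of windows. A single window per gene was searched, and any other start of a gene was not. The matches in TXNRD1 and TXNL1 are printed 5′ to 3′ on the gene's strand with the motif in capitals. They are a description of the letters and not of binding:
TXNRD1, 99 bases before the start, chr12:104215674-104215694, plus strand: gggctaTGACTTCGCtgttgt
TXNRD1, 8 bases before the start, chr12:104215765-104215785, plus strand, motif on the opposite strand: ccttcgGCTCCGTCAgttccc
TXNL1, 9 bases before the start, chr18:56638587-56638607, minus strand: ctggcgTGACTCGGCactgag

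The genes whose values over the 4 libraries were most like those of a member were found by the root mean square difference of log2(FPKM + 0.1), each gene centred on its own mean, among 13245 genes. With only 4 libraries such a likeness is a description. Nearest to TXN were CLPTM1, C14orf2 and BRI3, at 0.00883 to 0.0137, and CLPTM1 was 69.0, 92.7, 37.9 and 43.2 FPKM in wild-type replicates 1 and 2 and knockout replicates 1 and 2. Nearest to TXNRD1 were ERCC4, NEK7 and TM4SF19, at 0.0209 to 0.0255. Nearest to TXNIP were RAD50, RP11-323N12.5 and GS1-124K5.11, at 0.00590 to 0.0222.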

How the data were processed

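The authors mapped reads to hg38 with TopHat2 and an Ensembl annotation, ignoring new junctions, and the deposited values are FPKM per gene and library from Cuffdiff of the Cufflinks suite. Versions, library scaling and strand settings are not given in the sources used here. The deposited table also holds group means, fold changes, p-values and q-values of the authors' own comparison, which were not used.

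Values stood on 57979 of the 231916 lines. Identifiers were repeated 4 times and were out of register with the symbols. They were realigned by their order of first appearance, and those of all 10 members then matched their symbols in GENCODE release 44. SELENOT, SELENOM and SELENOF, absent by symbol, were matched by identifier.

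log2(FPKM + 0.1) was compared by limma (version 3.58.1, run under R 4.3.3) with an intensity trend over the 13246 genes with a mean above 1 FPKM and with Benjamini-Hochberg adjustment. Fold changes on this scale understate those of low genes. Called genes passed 0.01 after adjustment and differed 2-fold, the thresholds of the study's methods. Length and GC content were corrected per library by a loess curve (span 0.3). The steps were tested on simulated data. Tables were handled in Python 3.11.15 with numpy 2.4.6 and pandas 2.3.3, exact tests were run in scipy 1.17.1, and plots drawn in matplotlib 3.10.9.

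The members, lists and rules were chosen with earlier results of these data known. The rule for named genes took the members, TXNDC9, up to 2 genes per list with the largest changes, 6 markers, and the 3 nearest profiles of TXN, TXNRD1 and TXNIP. All other genes named (further called genes of a list, overlapping genes, copies, TXNRD3, NFE2L2, KEAP1, CUL3, TXNDC15, RRM1, ARRDC3, MLXIPL, MLXIP, CDH5 and PDGFRB) were chosen after their values were seen. Not every gene that overlaps a member on the opposite strand is reported here. Alternatives changed the pseudocount (1 or 0.01), the filter (none, or a mean above 5 FPKM) and the thresholds (0.05, or no fold), or used TPM, median centring, no trend, the replicate block, each library left out, and the correction.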

Additional observations from a re-analysis of the deposited data

How the results depend on the processing

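Other filters, other thresholds, no trend and the replicate block leave each log2 fold change as it was, so the direction could not change there. The block likewise repeats the corrected values. The counts that follow include these alternatives and are therefore no measure of robustness. Of the 176 values of single genes under an alternative, 146 kept their direction and their side of the thresholds, 18 kept the direction and lost the call, 7 gained it and 5 changed sign. Those were TXNIP under median centring (−0.0085), without wild-type replicate 1 (−0.0064, the leave-one-out range being −0.0064 to 0.2759) and after the correction for length and GC content without and with the replicate block (−0.0499 both), and TXNDC9 in TPM (0.12). TXNRD1 ranged from 0.90 to 1.99 and TXNL4A from −1.53 to −0.63 over the 16 alternatives. In TPM, 0 members were lower and 2 higher, 447 and 4380 of all genes, and 1 and 21 genes of the related lists. After the correction, 0 members were higher, with 1012 and 836 of all genes and 4 and 1 of the related lists, and with the block added 0 members were higher, with 987 and 724 and again 4 and 1. With no fold threshold 5 members were lower, with 3590 and 3142 of all genes and 25 and 16 of the related lists. With a mean above 5 FPKM required, 9593 genes were tested, of which 1704 were lower and 1220 higher. The share of calls that were higher was then 41.7%, against 48.3% as first tested.

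With each library left out in turn, members called lower ranged from 0 to 4 and higher from 0 to 1, all genes from 0 to 2633 and from 0 to 2136, and related genes from 0 to 15 and from 0 to 10. The 0 stood without either knockout library, where the smallest adjusted p of any gene was 0.016 and 0.0232, and the cause was not tested. At an unadjusted p under 0.05 with 2-fold, 2022 and 2290 genes were then lower and 2066 and 1973 higher. The log2 difference of TXN2/TXN ranged from −0.21 to 0.035, and was 0.55 after the correction, which also gave 0.82 for TXNIP/TXN and 1.77 for TXNRD1/TXN and was chosen for ratios after seeing the data.

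The deviations of same-numbered libraries correlated at −0.0904 over all tested genes. This value cannot show whether the replicate numbers paired the libraries, and the labels do not say. With the replicate block 3 members were lower and 1 higher, and 2146 and 1960 of all genes, so it changed no call of a member. With 2 libraries per group no outlying library could be tested for.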
